A study of Mus musculus with 8 samples.

Results

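Egr1, Egr2, Fos, Fosb, Jun, Junb, Ier2, Nr4a1, Dusp1 and Nfkbia are immediate early genes, and they were taken by symbol from a table of single mouse mammary cells. All 10 were found among 14883 gene lines. The cells came from ducts and terminal end buds, the growing duct tips, of the fourth and the fifth mammary gland of mice of mixed strain at 5 weeks of age. The tissue was micro-dissected and dissociated, and live cells were sorted into wells and read by SORT-seq, which counts each transcript molecule by its tag. There are 8 libraries of 96 wells, numbered 1 to 4 on each of 2 plates. Neither the tissue (duct or end bud) nor the animal of a library is given in the labels, so every p-value measures only how libraries vary, which may be technical.

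Immediate early genes are transcribed within minutes of a stimulus, without the need for newly made protein. Growth factor and stress kinases reach them through serum response factor, which binds the CArG box, through CREB, which binds the sequence TGACGTCA and its shorter form TGACG, and through NF-kB. Their RNA is short-lived, and enzymatic dissociation of tissue is known to raise them. No sample of undissociated tissue is analysed here, so no level from before dissociation can be set beside the levels in these cells.

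Promoter windows, from 250 bases before to 50 bases after a transcript start, were found for 8 of the 10 genes in RefSeq's annotation of GRCm38.p6. Motifs were searched on both strands. The 5 windows printed are shown because Fos, Egr2 and Dusp1 belong to the genes that varied together across basal cells. Nr4a1 and Nfkbia varied more on their own there. In luminal cells the contrast between Nr4a1 and Dusp1 was smaller. The windows were chosen after those values were seen. Capitals mark motif matches. Fos lies on the plus strand of chromosome 12 (chr12:85473640-85473939), and the capitals are 2 TGACG matches.
Fos: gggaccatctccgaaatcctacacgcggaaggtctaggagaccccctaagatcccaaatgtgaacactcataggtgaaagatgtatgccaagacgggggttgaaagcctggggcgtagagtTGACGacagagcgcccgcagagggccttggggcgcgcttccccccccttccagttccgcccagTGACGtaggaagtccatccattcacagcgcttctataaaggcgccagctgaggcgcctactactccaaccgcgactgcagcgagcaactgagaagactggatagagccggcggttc
Egr2 has 5 windows, one for each annotated start, and the one shown lies on the plus strand of chromosome 10 (chr10:67537619-67537918). Its capitals are a CArG box between 2 TGACG matches, the latter of them in reverse orientation.
Egr2: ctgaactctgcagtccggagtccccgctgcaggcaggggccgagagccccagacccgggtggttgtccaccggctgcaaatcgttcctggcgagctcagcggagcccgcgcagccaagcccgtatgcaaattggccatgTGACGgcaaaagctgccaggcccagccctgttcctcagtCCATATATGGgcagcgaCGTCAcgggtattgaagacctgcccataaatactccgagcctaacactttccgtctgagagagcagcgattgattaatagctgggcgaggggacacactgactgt
Dusp1 lies on the minus strand of chromosome 17 (chr17:26508423-26508722). Its capitals are 1 TGACG match and a full TGACGTCA, which itself contains 2 overlapping TGACG matches.
Dusp1: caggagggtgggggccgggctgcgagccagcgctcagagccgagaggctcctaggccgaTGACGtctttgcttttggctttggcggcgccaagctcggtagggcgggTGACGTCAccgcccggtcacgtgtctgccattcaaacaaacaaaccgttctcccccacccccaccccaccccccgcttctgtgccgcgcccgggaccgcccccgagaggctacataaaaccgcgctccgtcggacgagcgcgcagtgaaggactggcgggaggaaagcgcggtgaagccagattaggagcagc
Nr4a1 lies on the plus strand of chromosome 15 (chr15:101266596-101266895), and all 4 of its TGACG matches are in reverse orientation.
Nr4a1: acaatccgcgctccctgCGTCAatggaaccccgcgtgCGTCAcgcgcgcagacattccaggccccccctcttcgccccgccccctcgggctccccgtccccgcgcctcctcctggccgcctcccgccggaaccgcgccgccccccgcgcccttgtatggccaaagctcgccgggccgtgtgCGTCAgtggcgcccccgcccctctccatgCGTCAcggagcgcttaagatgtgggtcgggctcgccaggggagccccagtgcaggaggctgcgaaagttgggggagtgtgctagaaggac
Nfkbia lies on the minus strand of chromosome 12 (chr12:55492598-55492897), and the capitals are its match to an NF-kB site.
Nfkbia: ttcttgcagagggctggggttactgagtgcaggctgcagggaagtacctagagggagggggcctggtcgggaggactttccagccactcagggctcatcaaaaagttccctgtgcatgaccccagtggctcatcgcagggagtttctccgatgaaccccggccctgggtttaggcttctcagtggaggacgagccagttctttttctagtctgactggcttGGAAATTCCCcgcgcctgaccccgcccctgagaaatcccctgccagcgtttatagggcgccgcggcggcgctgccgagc

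Across 32851 promoter windows of the same length, 20.8% held TGACG, 1.79% held TGACGTCA, 1.63% held a CArG box and 0.411% held an NF-kB site. TGACG was also matched 1 time each in the windows of Fosb and Junb. The Jun window held none of the motifs searched, and the AP-1 site TGANTCA, present in 7.81% of windows, was matched in none of the 8 genes. A match describes letters in a window and does not show binding.

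Of 768 wells, 114 were kept as cells, which took a minimum of 1500 transcripts and of 500 genes. They split into 66 basal cells, with more Acta2, Tagln and Myl9 than Krt8, Krt18 and Krt19, and 42 luminal cells, the reverse. Luminal cells were called hormone-sensing where Prlr exceeded Trf (14 cells) and secretory otherwise (28 cells). Markers that the rule did not use followed the names, with Krt5 at 5.43 transcripts per 10000 in basal cells and at 0 in both luminal classes, Pgr at 10.2 in hormone-sensing against 0.202 in secretory cells, and Csn3 at 1.01 against 69.7. The other 6 cells held no transcript of the 6 keratin and muscle genes and were left unclassed. In each plate, basal cells came almost wholly from libraries 2 and 4 and luminal cells from libraries 1 and 3, and in that comparison an effect of class cannot be told apart from one of library. Kept cells held 1505 to 57903 transcripts, with medians of 13450.5 in basal, 17924 in hormone-sensing and 7102.5 in secretory cells. Some basal cells of plate 1 were led by markers of other cell types. In them the 8 non-epithelial lists together held more transcripts than the epithelial lists. These cells were 5 of the 8 in library 2, 2 of the 7 in library 4 and the 1 in library 3. The summed level of all 8 other-type lists ran from 4.63 to 61.4 per 10000 in basal libraries and from 1.33 to 10.2 in luminal libraries. The endothelial list gave 38.0 per 10000 in the basal sum of plate 1 library 2 with 7 of its 7 genes found, and 0.0284 in that of plate 2 library 4 with 1 of 7, and red blood cell markers were at 0 in all 4 basal sums.

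Egr1 and Egr2 were higher in basal than in luminal cells, while Dusp1 and Nfkbia were lower, and the AP-1 genes did not pass the test. These levels are transcripts of the gene per 10000 transcripts in the summed cells of a library, and at least 5 cells were required, which gave 4 basal and 4 luminal sums. Sums were compared with edgeR's quasi-likelihood test, Benjamini-Hochberg adjusted over all 3420 genes tested and called at an adjusted p under 0.05. Of all genes tested 14.8% were called, 8.07% higher and 6.7% lower in basal cells. All 10 early genes were tested, and 2 rose and 2 fell. Values are given in the order plate 1 library 2, plate 1 library 4, plate 2 library 2 and plate 2 library 4 for basal cells, and plate 1 library 1, plate 1 library 3, plate 2 library 1 and plate 2 library 3 for luminal cells.

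Egr1 and Egr2 encode zinc finger transcription factors of the early growth response family. Egr1 stood at 29.8, 22.6, 19.9 and 29.6 per 10000 in the basal libraries and at 9.61, 14.8, 12.5 and 11.5 in the luminal ones. Every basal library lay above every luminal one. The means were 25.5 ± 5.02 and 12.1 ± 2.17 (SD, n = 4 each), a log2 change of 1.07 ± 0.22 (SE; edgeR adjusted p = 0.00407). Within plate 1 alone the log2 change was 1.07 (adjusted p = 0.25) and within plate 2 alone it was 1.07 (adjusted p = 0.0165). In plate 1 library 2, the highest basal sum for Egr1, 5 of the 8 basal cells were led by markers of other cell types. The cell in well 64 of that library, not so led and with 29724 transcripts, held Egr1 at 1.68 per 10000.

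Egr2 stood at 1.28, 5.79, 8.18 and 6.68 per 10000 in basal libraries. In luminal libraries it was at 0, 0.109, 0.505 and 2.23 per 10000, and the 0 of plate 1 library 1 allows up to 0.297 (3 transcripts of its total). The groups overlapped only through plate 1 library 2, the lowest basal sum, and plate 2 library 3, the highest luminal sum. Egr2 rose by 2.86 ± 0.77 on the log2 scale (SE, edgeR adjusted p = 0.0229). After each cell was thinned to 1500 transcripts, 34 of 66 basal cells held an Egr2 transcript (51.5%, exact binomial 95% interval 38.9 to 64.0). The share was 7.14% in hormone-sensing cells (1 of 14, interval 0.181 to 33.9) and 7.14% in secretory cells (2 of 28, interval 0.877 to 23.5). Unthinned, the shares were 83.3%, 28.6% and 21.4%. No class that lacks Egr2 is known among these cells. The intervals cover only the sampling of cells pooled over libraries and leave out the spread between libraries. The 66 basal cells include 8 led by markers of other cell types.

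Fos, Fosb, Jun and Junb encode subunits of the AP-1 transcription factor, which binds DNA as a pair of Fos and Jun family proteins. Fos stood at 39.0, 20.1, 23.4 and 29.2 per 10000 in basal libraries and at 14.2, 23.9, 27.1 and 52.4 in luminal libraries. The highest and the lowest of these were both luminal, so the groups overlapped, and the log2 change was -0.07 ± 0.34 (adjusted p = 0.933). In plate 1 library 2, the highest basal sum for Fos, the cell in well 63, led by markers of other cell types, held Fos at 162. The cell in well 64, not so led, held it at 0.673. Fosb was at 12.8, 4.15, 3.37 and 8.10 in basal against 12.7, 8.54, 10.2 and 13.5 in luminal libraries. Its log2 change of -0.68 ± 0.38 did not pass (adjusted p = 0.295). Without plate 1 library 2, the highest basal library for Fosb and the one with most other-type markers, it was -1.09 (adjusted p = 0.0309). Jun, at 7.71 to 18.1 per 10000 in basal and 14.3 to 20.5 in luminal libraries, changed by -0.36 ± 0.25 (adjusted p = 0.416). Junb ran from 4.44 to 11.1 and from 4.26 to 10.7, with a log2 change of -0.07 ± 0.33 (adjusted p = 0.933).

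Ier2, a nuclear early response protein, ran from 1.28 to 4.58 per 10000 in basal and from 3.23 to 4.42 in luminal libraries (log2 change -0.19 ± 0.33, adjusted p = 0.79). Nr4a1, an orphan nuclear receptor, ran from 4.28 to 10.6 and from 5.03 to 11.7 (log2 change -0.27 ± 0.34, adjusted p = 0.681). Both genes overlapped between the classes.

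Dusp1 and Nfkbia encode inhibitors that act as feedback. Dusp1 is a phosphatase that switches off MAP kinases, and it stood at 3.43, 0.676, 0.835 and 1.59 per 10000 in basal libraries. In luminal libraries Dusp1 was at 4.85, 3.56, 3.92 and 3.90, above every basal library. It fell in basal cells by 1.43 ± 0.43 on the log2 scale (SE, edgeR adjusted p = 0.0401). Nfkbia holds NF-kB in the cytoplasm, and it was at 1.57, 1.45, 2.35 and 2.93 in basal against 5.35, 3.01, 4.04 and 10.3 in luminal libraries. These groups did not overlap either, and the log2 change was -1.40 ± 0.39 (adjusted p = 0.0269).

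The Egr1 call held when any 1 of the 8 libraries was left out (adjusted p 0.00291 to 0.0225). Egr2 lost its call without plate 1 library 3 (adjusted p = 0.0668), plate 2 library 2 (0.0786) or plate 2 library 4 (0.0608). Dusp1 lost it without plate 1 library 1 (0.0506), 3 (0.0547) or 4 (0.119) and without plate 2 library 2 (0.141), 3 (0.0608) or 4 (0.0963). Nfkbia lost it without plate 1 library 2 (0.0502) or 4 (0.0905) and without plate 2 library 2 (0.0739) or 3 (0.0883), all by edgeR. Without cells led by markers of other cell types, which takes plate 1 library 2 under 5 basal cells, Egr1 was at 1.01 (adjusted p = 0.00226) and Dusp1 at -1.93 (0.00182), Egr2 kept its call (0.00848), Fosb passed at -1.09 (0.0308) and Nfkbia did not at -1.35 (0.0506). With a minimum of 3 cells per sum, which keeps plate 1 library 2, and without those cells, Egr1 lost its call (edgeR adjusted p = 0.441). Nfkbia lost its call there too. That setting was chosen after seeing the data. Beyond these alternatives, the part of other cell types in the difference was not tested.

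**Figure D1:**
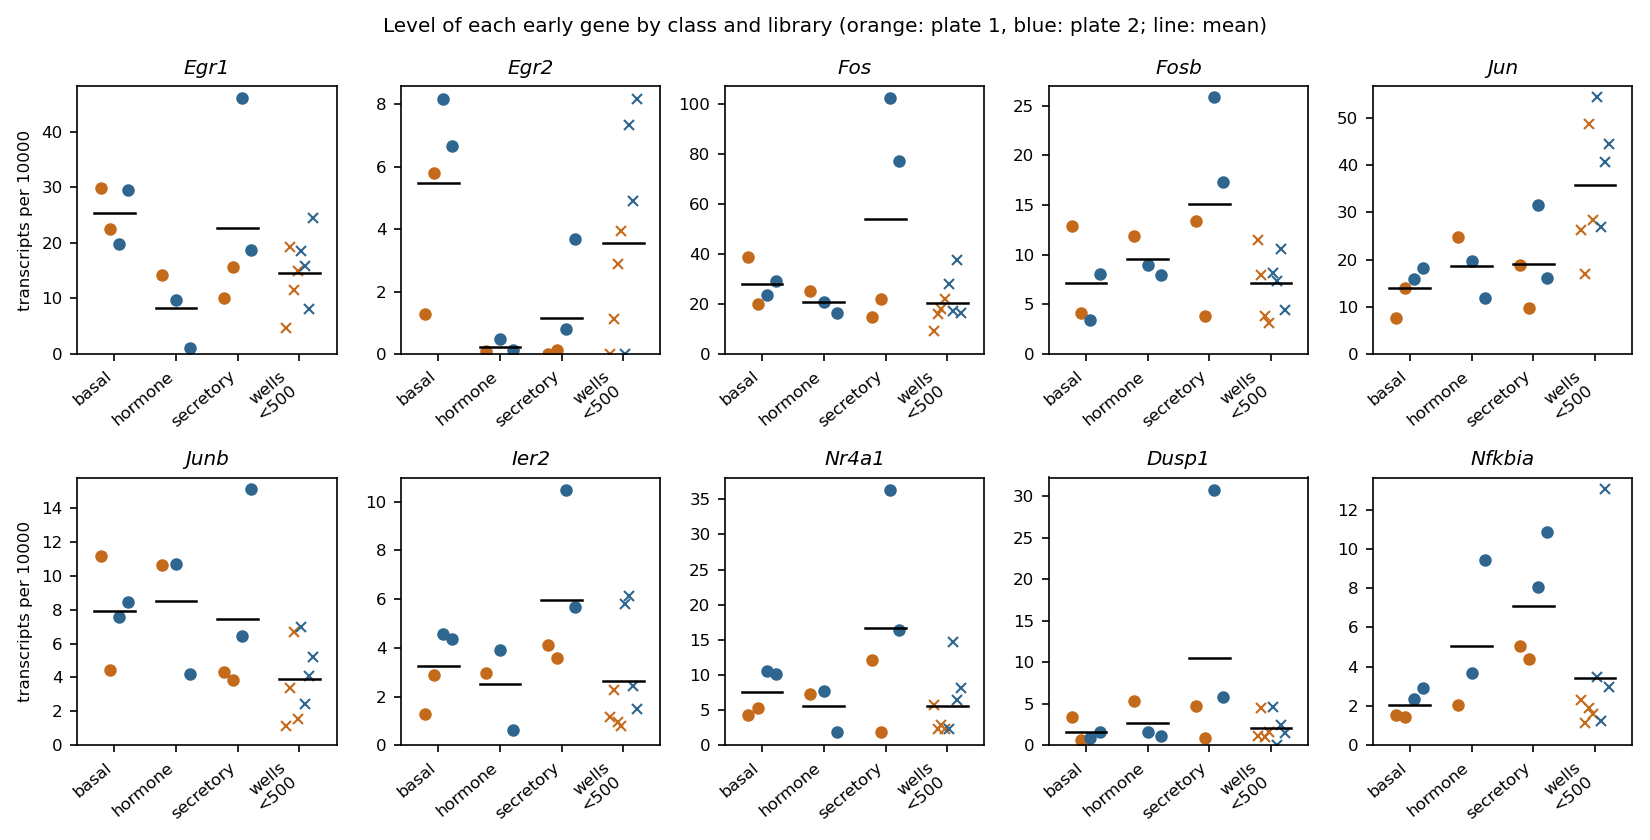
Level of each early gene, in transcripts per 10000, in the summed cells of each library by class, and in wells under 500 transcripts (crosses). Orange marks plate 1, blue plate 2, and the line is the mean; Egr1 in basal libraries lies between 19.9 and 29.8, and the single secretory point far above the others for Dusp1 is plate 2 library 1 at 30.7.

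**Figure D2:**
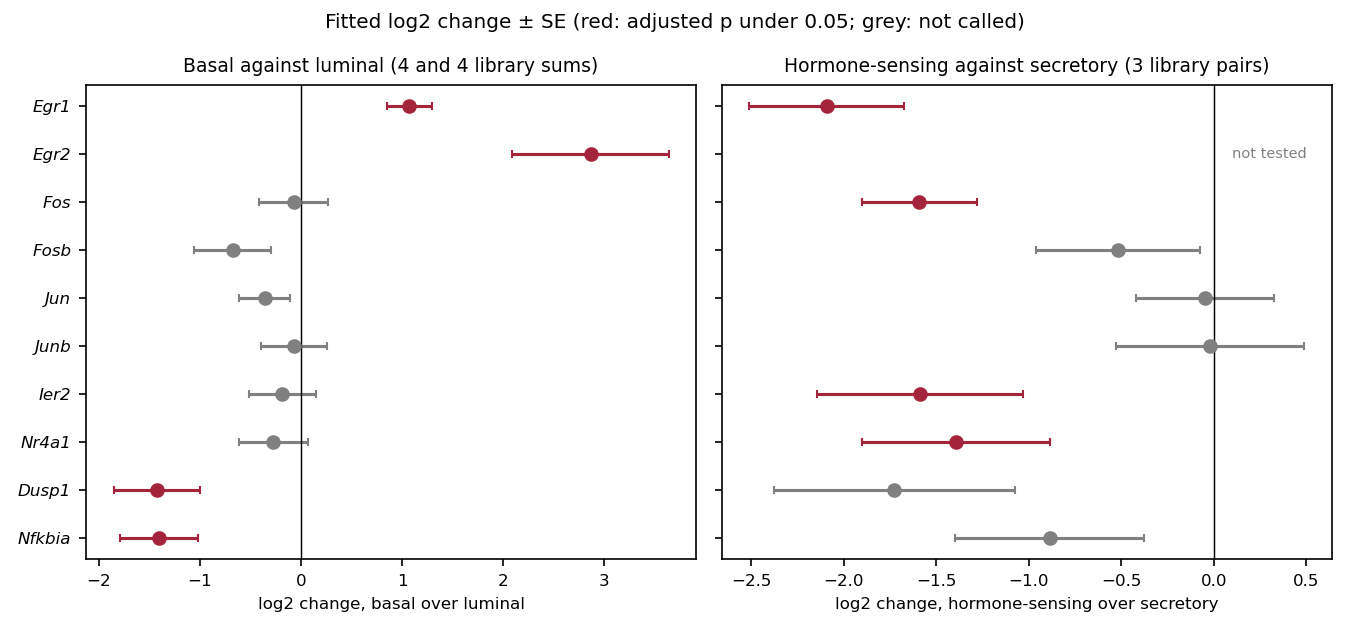
Fitted log2 change with its standard error for each gene, basal over luminal on the left (4 and 4 library sums) and hormone-sensing over secretory on the right (3 library pairs), with 0 marked by a line. Red points passed an adjusted p of 0.05, 2 up and 2 down on the left and 4 down on the right, and Egr2 was not tested on the right.

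Within the luminal cells, 4 early genes were lower in hormone-sensing than in secretory cells, Egr1, Fos, Ier2 and Nr4a1, and none was higher. The 3 libraries with at least 3 cells of both classes were compared with the library as block. The hormone-sensing sums held 3, 7 and 3 cells and the secretory sums 9, 3 and 9 cells, in the order plate 1 library 3, plate 2 library 1 and plate 2 library 3, which is kept for the values that follow. Of 1806 genes tested 13.3% were called, 5.81% higher and 7.53% lower in hormone-sensing cells. Of the 10 early genes 9 were tested, and Egr2, with at most 3.68 per 10000 in any sum, was under the count filter.

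Egr1 stood at 14.3, 9.66 and 1.15 per 10000 in hormone-sensing sums and at 15.6, 46.05 and 18.7 in secretory sums. It was lower in hormone-sensing cells in 3 of 3 libraries, though by little in plate 1 library 3. The log2 change was -2.09 ± 0.42 (SE, edgeR adjusted p = 1.21e-05). Fos was at 25.1, 20.7 and 16.5 in hormone-sensing and at 22.1, 103 and 77.1 in secretory sums. The 2 libraries of plate 2 carried this difference, and plate 1 library 3 went slightly the other way. Fos fell by 1.59 ± 0.31 on the log2 scale (SE, edgeR adjusted p = 6.22e-06).

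Ier2 was at 2.98, 3.91 and 0.638 per 10000 in hormone-sensing and at 3.58, 10.5 and 5.70 in secretory sums, lower in 3 of 3 libraries (log2 change -1.59 ± 0.56, edgeR adjusted p = 0.0354). Nr4a1 was at 7.27, 7.74 and 1.91 against 1.86, 36.4 and 16.4 (log2 change -1.39 ± 0.51, edgeR adjusted p = 0.0472). In plate 1 library 3, Nr4a1 was higher in the hormone-sensing cells. Dusp1 had the same form, at 5.40, 1.64 and 1.15 against 0.928, 30.7 and 5.79, and did not pass (log2 change -1.73 ± 0.65, adjusted p = 0.0565). Nfkbia, at -0.89 ± 0.51, Fosb at -0.52 ± 0.44, Jun at -0.05 ± 0.37 and Junb at -0.02 ± 0.51 were not called either.

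All 4 calls were lost without plate 2 library 1, whose 3 secretory cells held 12378 transcripts. Egr1 was then at -2.05 (edgeR adjusted p = 0.311), Fos at -1.24 (0.301), Ier2 at -1.71 (0.281) and Nr4a1 at -0.81 (0.796). All 4 were lost without plate 2 library 3 as well, with Egr1 at -1.16 (0.203), Fos at -1.04 (0.274), Ier2 at -0.81 (0.662) and Nr4a1 at -0.24 (0.94), and with no replicate block, with Egr1 at -1.28 (0.199), Fos at -1.26 (0.113), Ier2 at -1.04 (0.208) and Nr4a1 at -1.36 (0.209). Without plate 1 library 3 the Ier2 call was lost (-2.17, adjusted p = 0.163), and Dusp1 passed (-3.31, adjusted p = 0.00178).

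The order of the classes differed between genes. By the mean over libraries Egr1 was at 25.5 ± 5.02 in basal (n = 4), 22.6 ± 16.0 in secretory (n = 4) and 8.36 ± 6.65 in hormone-sensing sums (SD, n = 3). Neighbouring means in that order differed by less than the SD of the secretory libraries. Fos ran from 54.2 ± 42.6 in secretory through 27.9 ± 8.27 in basal to 20.7 ± 4.30 in hormone-sensing sums, and neighbours in that order lay within the larger SD of each pair. Egr2 ran from 5.48 ± 2.97 in basal through 1.16 ± 1.72 in secretory to 0.233 ± 0.214 in hormone-sensing sums, and its luminal classes lay within their spread while basal lay beyond it.

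No early gene passed the test between the plates. Basal and luminal cells of a library were summed, 4 libraries a plate, and 0 of 3649 genes were called (0.0%) by edgeR and 0 by DESeq2, with 109 genes at an unadjusted p under 0.05. The fit had no term for class, so class differences between libraries added to the spread within a plate. For Egr1 the SD was 8.41 within plate 2 and 8.97 within plate 1, against 5.02 within basal and 2.17 within luminal sums. A block by library number, an alternative that also takes up class, called 0 genes as well. Of the 10 early genes, 7 were above 0, with a median log2 change of 0.42 against 0.02 over all genes. The largest among them was Egr2, at 1.31 ± 1.25, and its libraries overlapped. Nr4a1 was at 9.83 to 10.6 per 10000 in the 4 libraries of plate 2 and at 4.28 to 11.7 in those of plate 1 (log2 change 0.62 ± 0.34, adjusted p = 1.0). No gene was called for a class difference that itself differed between plates (edgeR interaction term, 0 of 3420, 0.0%, with 170 at an unadjusted p under 0.05). Among the early genes only Egr2 had an unadjusted p under 0.05 there (0.0462, adjusted p = 0.928), with a basal minus luminal log2 change of 5.49 on plate 1 and 2.42 on plate 2.

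Levels varied far more between the cells of a class than between classes. The 10 genes summed had a median of 92.5 per 10000 over basal cells, with a range from 2.69 to 373. In hormone-sensing cells the median was 58.0 (13.8 to 179) and in secretory cells 135 (2.04 to 511). Basal and secretory cells thus included some nearly without early gene transcripts. Every class included cells in which the 10 genes made up over 1% of all transcripts. The highest basal cell (373) and the lowest secretory cell (2.04) were led by markers of other cell types. In plate 1 library 3, where no secretory cell was so led, the lowest secretory cell was at 6.95.

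Across cells the early genes varied together. Spearman correlations were taken within each library with at least 10 cells of a class and averaged by cell number. Over 49 basal cells of 2 libraries the median of the 45 pairs was 0.385, and 42 pairs were above 0. All pairs of the 3056 genes found in at least 50% of those cells had a median of 0.0511 and a 95th percentile of 0.327. Over 34 luminal cells of 3 libraries the median of the 45 pairs was 0.352, with 44 above 0, against a median of 0.0531 and a 95th percentile of 0.38 for all pairs of 2219 genes. The median over the early genes thus lay above the 95th percentile of all pairs in basal cells and below it in luminal cells. By library the basal medians were 0.435 in plate 2 library 2 and 0.3 in plate 2 library 4. The luminal ones were 0.352 in plate 1 library 3, 0.5 in plate 2 library 1 and 0.25 in plate 2 library 3. The contrast between the classes was thus smaller than the spread between libraries. The points share library and depth. The luminal ones also mix hormone-sensing and secretory cells, and the part of this mix in the correlations was not tested. With cells thinned to 1500 transcripts the medians were 0.123 in basal and 0.292 in luminal cells, against -0.0135 and -0.0095 for all pairs, and both then lay below the 95th percentiles of 0.262 and 0.321.

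Egr1, Egr2 and the 4 AP-1 genes were grouped after the values were seen. In basal cells their 15 pairs ran from 0.385 to 0.695 with a median of 0.564, and Egr1 with Fos was the highest. In luminal cells the 15 pairs had a median of 0.507. Egr1 and Fos reached 0.878 in luminal cells, and Egr1 with Ier2 reached 0.826. Dusp1 stood at a median of 0.424 with the same 6 genes in basal cells and 0.322 in luminal cells. Ier2 stood at 0.379 and 0.545, the latter above the median of the 15 pairs in luminal cells. Nr4a1 was looser, at 0.117 in basal and 0.271 in luminal cells, and its highest partner in luminal cells was Dusp1 (0.582). Nfkbia was at 0.25 and 0.0867. The 2 feedback inhibitors, Dusp1 and Nfkbia, correlated with each other at only 0.13 in basal and 0.16 in luminal cells.

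**Figure D3:**
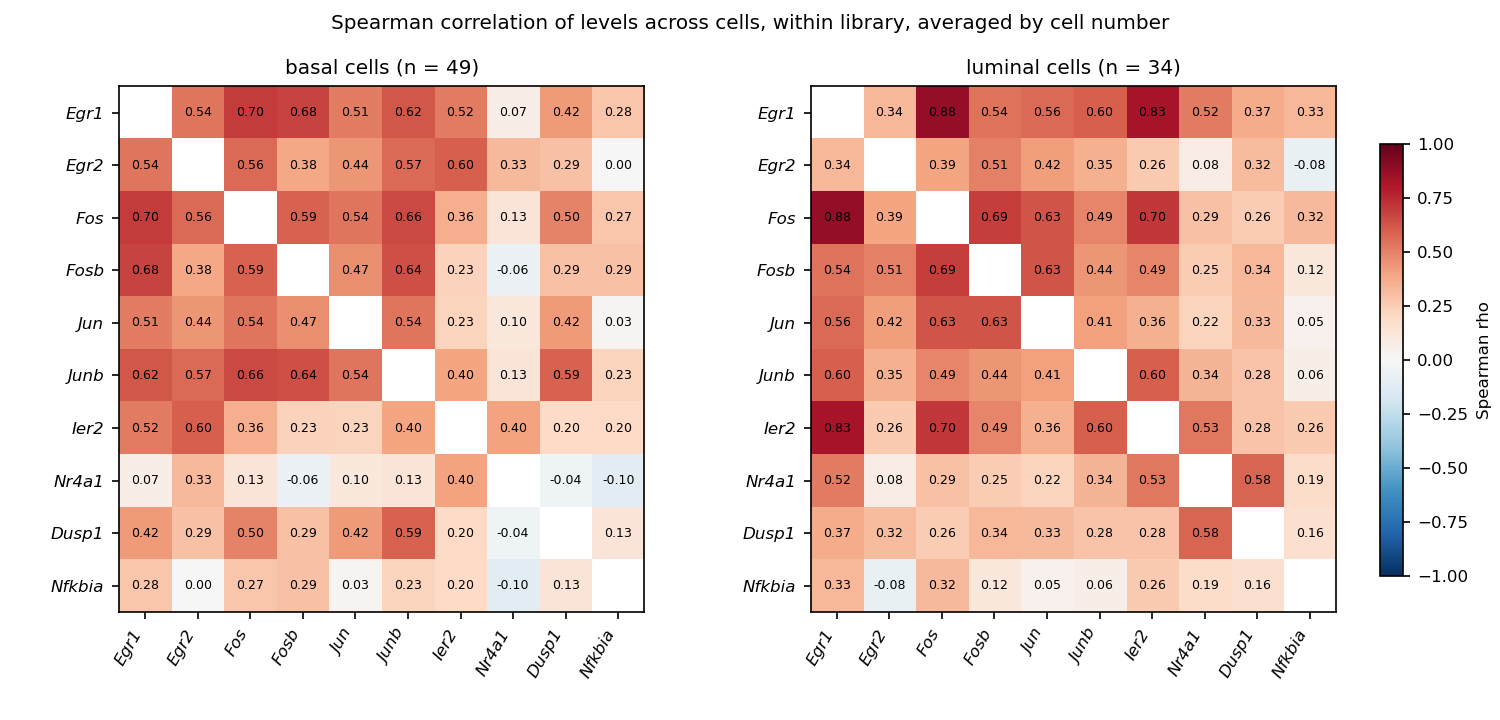
Spearman correlation of each pair of early genes across 49 basal and 34 luminal cells, computed within library and averaged by cell number, on a colour scale from -1 to 1. The block of Egr and AP-1 genes is red in both panels, while the rows of Nr4a1 and Nfkbia are pale in basal cells.

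**Figure D4:**
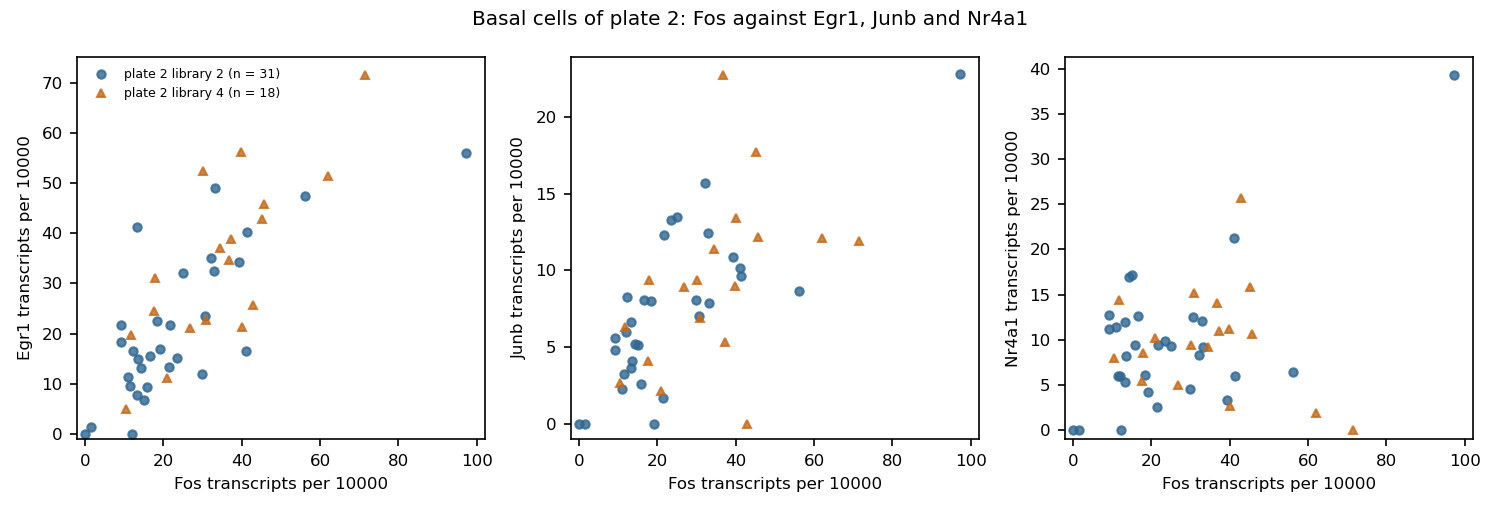
Levels per 10000 transcripts in single basal cells of plate 2 library 2 (circles, n = 31) and library 4 (triangles, n = 18), with Fos on the x axis and Egr1, Junb or Nr4a1 on the y axis. Egr1 and Junb are higher in cells with more Fos, while Nr4a1 shows little relation to it.

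In basal cells the other genes closest to the summed early gene level included Acta2 (0.691), Cnn1 (0.664), Lpp (0.656), Timp3 (0.656), Plxdc2 (0.64), Tagln (0.639), Sepp1 (0.62), Mylk (0.62) and Myh11 (0.61), by mean rho over the same 49 cells. The median over 3047 genes was -0.0192. Acta2 and Tagln, which encode smooth muscle actin and transgelin, are also genes of the class rule. The most alike genes of the listed early response genes were Socs3 (0.58, rank 15), a cytokine feedback inhibitor, and Dnajb1 (0.568, rank 21), a heat shock co-chaperone. Other genes of their lists were spread widely. Among ranked genes rho ran from 0.58 down to -0.0771 in the feedback list and from 0.568 down to -0.25 in the heat shock list.

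The early genes tended to be higher in wells with higher numbers. Well number is the number in a well's column name, and the labels do not tie it to the order of sorting. In plate 2 library 2, 9 of the 10 genes had a Spearman correlation with well number above 0 over 31 basal cells (median 0.258, against -0.0804 over all genes found in at least 50% of the cells). In plate 2 library 4, 9 of 10 were above 0 over 18 basal cells (median 0.437, against -0.0759). The luminal medians were 0.51 in plate 1 library 3 (n = 12, 10 of 10 above 0), 0.288 in plate 2 library 1 (n = 10, 8 of 10) and 0.258 in plate 2 library 3 (n = 12, 8 of 10), against 0.0775, -0.0424 and 0 over all genes.

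Egr2 and Junb had the highest correlations with well number in plate 2 library 4, at 0.66 and 0.65. With cells thinned to 1500 transcripts these were -0.0649 and 0.393, so that of Egr2 lost its direction. Egr1 reached 0.51 in plate 2 library 2 (0.383 thinned) and Fosb 0.88 in plate 1 library 3 (0.668 thinned). Nr4a1 was at -0.08 and 0.24 in the 2 basal libraries. The 9 secretory cells of plate 2 library 3, by rising well number, had summed levels of 103, 110, 133, 163, 237, 184, 273, 269 and 225 per 10000. Those in wells 72 to 93 all lay above those in wells 5 to 56. That split was picked after the values were seen, in this class and library alone.

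Other measures moved with well number too. Transcripts per cell correlated with it at -0.31 and -0.399 in the basal libraries and at 0.266, -0.0182 and 0.224 in the luminal ones. With depth partialled out the median over the early genes was 0.348 and 0.395 in the basal libraries. With cells thinned to 1500 transcripts it was 0.234 in plate 2 library 2 and 0.276 in plate 2 library 4, against 0.258 and 0.437 unthinned. The luminal medians were then 0.551, 0.306 and 0.136, the last down from 0.258 in plate 2 library 3. The summed basal markers of the class rule correlated with well number at 0.702 and 0.284 in the same 2 libraries, and with the summed early gene level at 0.577 and 0.893. In the luminal libraries the luminal markers correlated with well number at 0.28, -0.127 and -0.315 and with the summed early gene level at 0.643, -0.588 and -0.699, so the sign differed between libraries. The luminal libraries also mixed hormone-sensing and secretory cells. The part of the markers or of this mix in the relation was not tested.

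**Figure D5:**
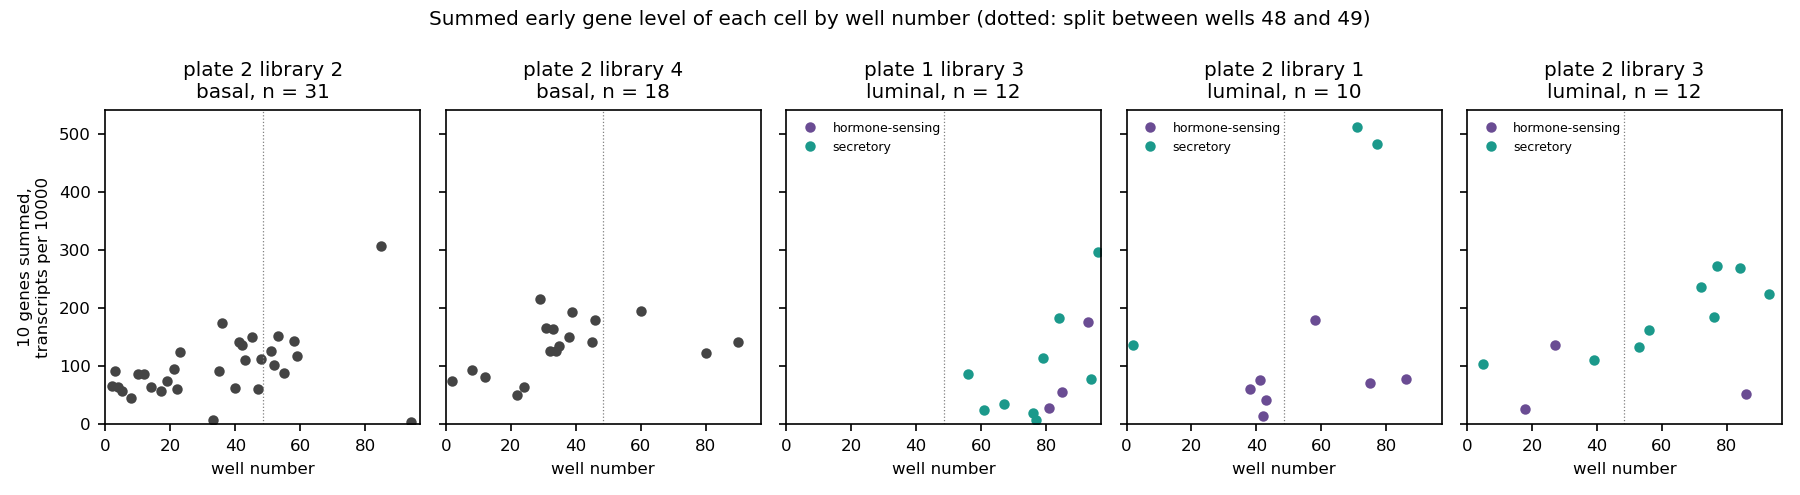
Summed level of the 10 genes in each cell, in transcripts per 10000, against well number in the 5 libraries with at least 10 cells of a class, with a dotted line between wells 48 and 49. In plate 2 library 3 the secretory cells run from 103 to 273, and in plate 2 library 1 the 2 secretory cells in the upper wells stand at 483 and 511.

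A test of wells 49 to 96 against wells 1 to 48 was possible for basal cells in 2 libraries, with 8 and 23 cells in plate 2 library 2 and 3 and 15 cells in plate 2 library 4. With the library as block it leaves 1 residual degree of freedom. By edgeR 0.195% of 4621 genes were called (9 genes), and 0 of the 10 early genes, although 386 genes had an unadjusted p under 0.05 and DESeq2 called 3. The median log2 change was 0.37 over the early genes, 9 of them above 0, and -0.05 over all genes. Dusp1 was at 0.624 and 1.19 per 10000 in low wells and at 1.52 and 5.51 in high wells of libraries 2 and 4 (log2 change 1.66 ± 0.45, adjusted p = 0.205). Fosb went from 2.87 and 7.24 to 5.00 and 16.5 (0.92 ± 0.29, adjusted p = 0.348), and Junb from 6.57 and 7.74 to 10.9 and 15.3 (0.77 ± 0.26, adjusted p = 0.398). Nr4a1 was nearly level, at 10.6 and 10.02 in low and 10.4 and 10.7 in high wells. With luminal cells added to the basal ones, Fosb passed (adjusted p = 0.0263).

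Among related early response genes, those of the AP-1 family, a list that contains Fos, Fosb, Jun and Junb, had 0 of 8 tested up and 1 down in basal against luminal cells. The fallen gene was Jund (-1.17 ± 0.32, edgeR adjusted p = 0.0264). Of the other early growth and nuclear receptor factors, a list that contains Egr1, Egr2 and Nr4a1, 3 of 9 rose, Egr1 and Egr2 among them, and 1 fell. Srf, serum response factor itself, rose by 1.62 ± 0.34 (adjusted p = 0.00459), and Klf2, a Krüppel-like factor, was at -3.01 ± 0.69 (adjusted p = 0.00907). Among 11 feedback and RNA decay genes, 1 rose and 2 fell. Dusp6, a phosphatase acting on ERK, rose by 2.73 ± 0.35 (adjusted p = 0.000121), whereas Dusp1 and Ier5 (-1.42 ± 0.40, adjusted p = 0.0269) fell. Thus Dusp1 and Dusp6, both MAP kinase phosphatases, went in opposite directions. Nfkbia was the only one of 6 NF-kB targets to pass, with Icam1 at 1.89 ± 0.72 (adjusted p = 0.106).

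Of 14 heat shock and chaperone genes 1 rose, Hsph1 (1.29 ± 0.38, adjusted p = 0.0371), and Hspa1b, an inducible heat shock gene with a close copy in Hspa1a, was at -1.19 ± 0.46 (adjusted p = 0.111). Cyr61, a secreted matrix protein, was the only one of 10 secreted early genes that could be tested and rose by 3.70 ± 0.49 (adjusted p = 0.000144). None of 3 cAMP and calcium genes and none of 9 EGF receptor and MAP kinase genes passed. The list medians were -0.52 for AP-1, 1.07 for the growth and nuclear receptor factors, -0.36 for feedback, -0.31 for NF-kB targets, 0.26 for heat shock, -0.05 for cAMP and calcium, 0.37 for the EGF receptor list and -0.23 for the 10 genes, against 0.00 over all genes (-0.000123). Several lists hold members of the 10 genes, and the 1.07 is the value of Egr1 itself.

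In hormone-sensing against secretory cells, Ier3, an early gene of the feedback list, also fell (-1.52 ± 0.55, adjusted p = 0.0452), as did Ier2 from the 10 genes, so 2 of 8 fell in that list. Areg, a secreted EGF receptor ligand and a marker of hormone-sensing cells, rose by 5.25 ± 0.63 (adjusted p = 2.08e-14). Of 12 heat shock genes, 6 NF-kB targets, 2 cAMP and calcium genes and 3 EGF receptor and MAP kinase genes, 0 were called. The median of the 9 early genes tested was -1.39, against 0.10 over all genes. Between plates and between low and high wells, 0 genes of these 8 lists were called, and the 14 heat shock genes were all above 0 on plate 2 (median 0.39 against 0.02 over all genes).

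Wells below the cell threshold also held early gene transcripts. The 579 wells under 500 transcripts summed to 83246 transcripts. Jun was higher in these wells than in the kept cells of the same library in 8 of 8 libraries, at 17.0 to 54.4 per 10000 against 13.5 to 20.3. Its pooled level was 36.5 in them (exact Poisson 95% interval 32.5 to 40.9) and 16.7 in kept cells. Among 1056 genes with at least 300 transcripts in kept cells, a minimum set after the values were seen, Jun ranked 22 by the ratio of low wells to kept cells (log2 1.13, median over genes -0.29). Junb, the other Jun family gene of the 10, went the other way and was higher in kept cells in 8 of 8 libraries, 4.44 to 13.3 against 1.15 to 6.95. Egr1, Fosb and Nr4a1 were higher in kept cells in 7 of 8 libraries, Fos and Ier2 in 6, Dusp1 and Nfkbia in 5 and Egr2 in 4. The median gene was also lower in low wells (log2 -0.29). Egr1 (-0.42, rank 611), Fos (-0.44, rank 624) and Fosb (-0.13, rank 435) lay near it. Junb (-1.03, rank 923), Nr4a1 (-0.75, rank 824) and Ier2 (-0.74, rank 817) lay further below. The share of all genes higher in kept cells by library was not counted. In the 68 wells with at least 500 but under 1500 transcripts Jun exceeded the kept cells in 5 of 8 libraries, with a median over libraries of 23.5 per 10000. What these wells contained was not tested.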

How the data were processed

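Members and gene lists were chosen with earlier results of these data known. The authors' deposited values are expected counts, transcript molecules per gene and well estimated from tags, and 518732 of 518737 values above 0 lie, within 1e-06, on the scale of a pool of 256 tags. Per the labels' protocols cells were sorted into wells and processed by SORT-seq. The submitters' processing notes name BWA 0.6.2-r126 and mm10 without a role. Here, 81 spike-in lines were left out, counts were rounded (0.532% of transcripts removed), and no mitochondrial gene line was present. The 96 well numbers recur in every library by the plate format. The 8 libraries held 101158 to 598625 transcripts. No doublet caller was run.

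Sums per library and class were compared in R 4.3.3 by the quasi-likelihood test of edgeR 4.0.16, after filterByExpr and TMM, with Benjamini-Hochberg adjustment, with DESeq2 1.42.0 as an alternative, and the scripts were tested on simulated data. Levels, correlations and thinning used Python 3.11.15, numpy 2.4.6, pandas 2.3.3 and scipy 1.17.1. The standard error of a log2 change is approximate. Luminal classes needed at least 3 cells per sum, other sums 5, and low or high wells 3. Named genes were the 10 members, up to 4 called and 2 other genes of each list by size of change, and the 10 genes most correlated with the summed members in basal cells, of which 1 is not reported here. Further names outside that rule, Socs3 and Dnajb1, were chosen after their values were seen. Only 1 member value, 291 for Fos in 1 well, lies above 256. To check whether library numbers pair the plates, deviations from the plate means were correlated, which gave 0.381, 0.443, 0.57 and 0.64 for numbers 1 to 4. For 3 of 4 numbers the highest correlation was with another number (0.551 for number 1, 0.574 for 3 and 0.654 for 4). On both plates numbers 2 and 4 held mostly basal and 1 and 3 mostly luminal cells. These correlations therefore cannot tell pairing from class. The reported fit between plates had no block, and a block by library number was run only as an alternative. The replicate block changed no call between plates. Alternatives tried were DESeq2 and its size factors, no filter on low counts, thinning to 1500 transcripts, leaving out libraries or cells led by other cell types' markers, other cell minimums, plates apart, and other splits of the wells.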

Additional observations from a re-analysis of the deposited data

Results flagged for a closer look

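Dusp1 in the secretory cells of plate 2 library 1, at 30.7 transcripts per 10000, stood apart from the other secretory sums, of which the nearest was 5.79 and the lowest 0.928. The gap to the nearest library exceeded the 95% limit of Dixon's test for 4 samples, which chance exceeds in about 1 of 20 groups. Each of the 10 genes was searched in basal, luminal and secretory sums, and no other group was flagged. With that many groups, 1 flag can arise by chance. That sum holds 3 cells and 12378 transcripts. Egr1 (46.05), Fos (103), Nr4a1 (36.4) and Ier2 (10.5) were also highest there among the secretory sums, without passing that limit. What sets this library apart was not tested.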

How the results depend on the processing

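The number of genes called in basal against luminal cells (505) was 1511 with no filter on low counts, 33 with thinned cells, of fewer genes tested, 835 without cells led by other cell types, 163 within plate 1 and 939 within plate 2, and 944 with at least 10 cells per sum. It ran from 436 to 848 with 1 library left out, of which plate 1 library 1 gave 761 and plate 1 library 2 gave 848. In hormone-sensing against secretory cells (241) it was 19 with thinned cells and 11 to 140 with 1 library left out, 120 without plate 1 library 3 and, on plate 2, 11 without library 1 and 140 without library 3. With no replicate block it was 294. Between low and high wells (9) it was 3 with DESeq2, 5 with its size factors, 2 with no replicate block and 0 with thinned cells or a split at the median well, the last also with luminal cells added. The median pair correlation in basal cells (0.385) was 0.123 with thinned cells. Where no cause is named, the cause was not tested. Between plates 0 genes were called in every alternative run, the replicate block by library number included. Egr1 kept its basal call in 15 of 18 alternatives, Egr2 in 13 of 17, Dusp1 in 10 of 17 and Nfkbia in 8 of 17. Egr1 lost it with thinned cells (adjusted p = 0.187), within plate 1 (0.25) and at 3 cells without other-type cells (0.441). In the luminal comparison Egr1 kept its call in 5 of 10, Fos in 4 of 10, Ier2 in 2 of 9 and Nr4a1 in 2 of 9. No result changed direction while called. The alternatives at 3 cells without other-type cells and with luminal cells at the median well were chosen after seeing the data. No paired analysis was possible for basal against luminal because no library held at least 3 cells of both, and a minimum of 3 cells gave the same sums as 5. For low and high wells, plate 2 alone and the fit without other-type cells use the same samples as the reported fit, and leaving out either library leaves 1, with values but no test, where Nfkbia went from 0.26 to -0.62 without library 2 and 0.85 without library 4. The luminal and well comparisons rest on sums of few cells.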

Other observations

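The 6 unclassed cells, all led by markers of other cell types, held the 10 early genes at a median of 133 per 10000 with a range from 16.7 to 512, so the highest kept cell of the series is one of them. The 4 of plate 1 library 2 summed to 63.0 per 10000 for Egr1, 104 for Fos and 21.4 for Nr4a1, and carried red blood cell markers at 308 per 10000 and endothelial markers at 58.6. The 2 of plate 1 library 1 carried macrophage or dendritic markers at 141 per 10000 and had Nfkbia at 21.4 and Fos at 4.27, against 11.5 and 104 in the 4 cells of library 2. These are values of 4 and 2 cells, with no comparison between libraries.

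The 2 cells that met the basal rule in plate 1 library 3 and plate 2 library 1, where the other classed cells were luminal, held summed early gene levels of 5.14 and 4.16 per 10000, near the lowest of all kept cells. The cell of plate 1 library 3 was led by other markers, with 354 red blood cell transcripts (455 per 10000). Both held Jun transcripts and none of the other 9 genes.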
